A study of Mus musculus with 5 samples.

Results

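Chromosome 18 of the mouse was followed through the A and B compartments of hippocampal neuronal nuclei in 3 states named Basal, Early and Late. Its members were all 50 kb bins of chromosome 18 that carried a value in each of the 5 libraries, which gave 1757 bins (87.85 Mb) of 50542 such bins in the whole series. All 1757 bins listed on the chromosome had a value in every library, so the rule removed none, and they ran without a gap from 2950001 to 90800000 in the mouse build mm9. The bins were chosen by chromosome and by the presence of a PC1 value (the compartment measure explained below) in every library, not by its size, but the chromosome itself was selected on results of these data. How it ranks among chromosomes is therefore a description and not a finding. The libraries were Hi-C libraries, in which stretches of DNA in contact inside the nucleus are ligated and sequenced as pairs. They were made from NeuN- and GFP-stained nuclei sorted from the hippocampus of mice carrying ArcCreERT2 and R26R-STOP-floxed eYFP, a yellow fluorescent protein, with the genotype given as +/+. In these mice a tamoxifen-dependent Cre under Arc, a gene switched on by neuronal activity, labels cells that were active around a dose of 4-hydroxytamoxifen. The protocol, which is the same for all libraries, places 1 such dose 1 h before contextual fear conditioning and takes 100000 cells from 2 animals for a group. Whether Basal mice were conditioned is not said apart from it. Basal had 2 libraries, Early 1 and Late 2. Every library carries the same treatment label, with foot shock and tissue collection on day 0 and no recall, while the protocol has brains taken either 1.5 to 2 h or, in other mice, 5 days after the task. The time behind each state is thus known only as far as the titles give it, and neither the age of the mice nor the gate (eYFP-positive or eYFP-negative) of a library is stated.

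Interphase chromosomes fold so that active, gene-rich stretches contact each other (compartment A) and silent, gene-poor stretches, often at the nuclear lamina, contact each other (compartment B). The first principal component (PC1) of a chromosome's contact matrix separates the stretches. By HOMER's convention a positive PC1 marks A and a negative PC1 marks B, and a bin whose PC1 moves up has contacts more like those of A. Chromosome 18 carries several genes studied in learning. In the GRCm38.p6 RefSeq table, 511 protein-coding genes are placed on it. Counted from the centromere, Zeb1, a repressor of epithelial genes, is number 12 and Cdh2, the neuronal adhesion protein N-cadherin, number 56. Celf4, an RNA-binding protein of excitatory neurons, is number 95, and Camk4, a calcium-dependent kinase, number 117. Egr1, an immediate early transcription factor, is number 137. The clustered protocadherins, cell-surface proteins that give neurons individual identity, supply 57 genes between numbers 179 and 240. Further out lie Nr3c1, the glucocorticoid receptor (257), Megf10, a receptor for engulfment (337), and Camk2a, the alpha subunit of the main synaptic calcium-dependent kinase (363). Tcf4, a transcription factor (431), Dcc, the netrin receptor (439), Mbp, a protein of myelin (491), and Cbln2, an organiser of synapses (505), follow. That table is of another build than the files, so it gives names and order only and no gene is assigned to a bin.

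Read counts are not among the deposited values, so the depth of the libraries is unknown and counting error cannot be stated. On chromosome 18 the PC1 values of each library had a mean of 0 and an SD of 1.00, so a change of the whole chromosome, or of the strength of its compartments, cannot be seen, and rises in some bins must be balanced by falls in others. The noise of a library was taken as the part of a bin's deviation from the bins 100 kb on either side that other libraries do not share. On chromosome 18 the Basal libraries had a noise of 0.192 and 0.196 PC1 units, Early 0.288, and Late replicates 1 and 2 had 0.161 and 0.244. Over all chromosomes analysed it was lower in each library, at 0.127 and 0.129, 0.227, and 0.114 and 0.205.

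The compartment pattern of chromosome 18 was a series of A and B blocks that all 5 libraries shared in outline. In 1382 bins (78.7%) PC1 had 1 sign in all 5 libraries, 652 of them in A and 730 in B, against 81.2% over all chromosomes analysed. Compartment A held 47.9% and 46.4% of the bins of Basal replicates 1 and 2, 47.8% of those of Early, and 48.7% and 48.1% of those of Late replicates 1 and 2. PC1 ran from -2.13 to 2.25 over all libraries. The last segment of the chromosome, from 90000001 onwards, lay in B in all 16 bins of every library.

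**Figure D1:**
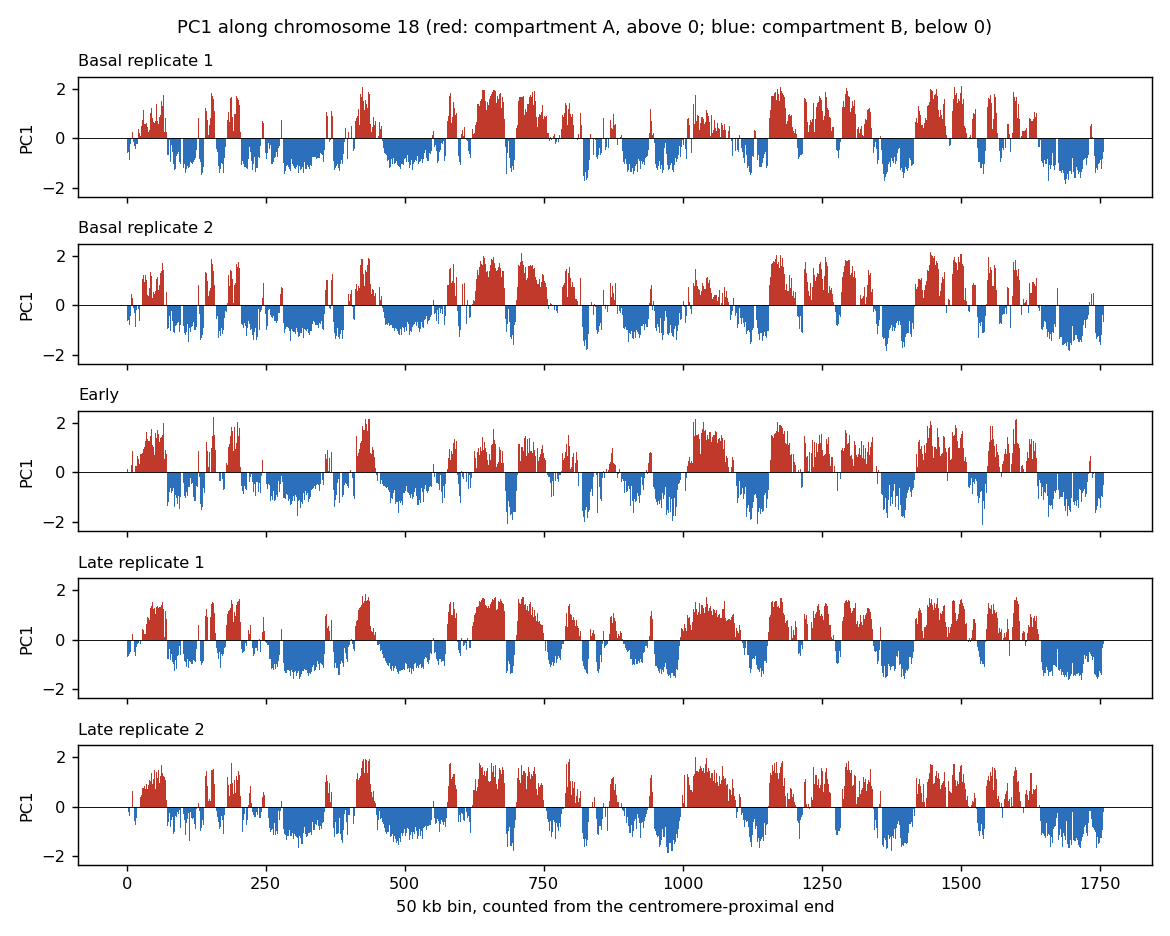
PC1 (vertical axis, no unit) of each of the 1757 bins of chromosome 18, in order from the centromere-proximal end, with 1 panel for each library; red bins are above 0 (compartment A) and blue bins below 0 (compartment B). The blocks recur in outline in all 5 panels, and each library has between 46.4% and 48.7% of bins in A.

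The longest block in A in all libraries spanned 3000 kb, from 53800001 to 56800000. Its mean PC1 was 0.647 and 0.621 for Basal replicates 1 and 2, 1.45 for Early, and 1.20 and 1.37 for the Late replicates. It was thus a weak A block in Basal and a strong one in the other libraries, with no overlap. The next A block, from 34100001 to 36900000, took another course, with Basal at 1.48 and 1.43, Early at 0.763, and Late at 1.42 and 1.26. Here Early alone was low. The third A block, from 4300001 to 6350000, had Basal at 0.822 and 0.902, Early at 1.32, and Late at 0.985 and 1.09, so Early was highest.

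The longest B blocks differed less between libraries. The longest spanned 4500 kb from 25900001 to 30400000, with mean PC1 values of -0.890 and -0.801 for Basal, -0.890 for Early, and -1.06 and -1.05 for Late. The block from 17000001 to 20400000 had Basal at -1.08 and -0.992, Early at -0.965, and Late at -1.27 and -1.08. The block from 70800001 to 73750000 had Basal at -1.08 and -1.10, Early at -1.12, and Late at -1.11 and -1.17. In these 3 blocks of 90, 68 and 59 bins, at most 6 bins of a block passed the test described below in 1 direction of a comparison.

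Chromosome 18 was divided into 127 and 129 runs of 1 sign for the Basal libraries, 150 for Early, and 93 and 116 for Late replicates 1 and 2. Runs of at most 100 kb numbered 36 for each Basal library, 75 for Early, and 23 and 46 for Late. Within the Late pair and between Early and the rest, the library with more noise had more and shorter runs. Between Late replicate 2 and the Basal libraries the order was the other way for the number and mean length of runs. Runs of at most 100 kb kept the order, at 46 against 36 in each Basal library. Late replicate 2 had more noise but fewer runs, with a mean length of 757 kb against 692 and 681 kb in Basal. The part of noise in these counts was not tested. Of the 92 borders of Late replicate 1, 77.2% lay within 50 kb of a border of Late replicate 2, and 62.0% and 63.0% within 50 kb of a border of Basal replicates 1 and 2. Of the 115 borders of Late replicate 2, 64.3% lay within 50 kb of one of Late replicate 1, and 60.9% and 53.0% of one of the Basal libraries. The Basal libraries shared 80.2% of the 126 borders of replicate 1 and 79.7% of the 128 of replicate 2. Of Early's 149 borders, 47.7% and 53.7% lay near a Basal border and 40.3% and 45.0% near a Late border. Borders were shared more widely within the Basal and Late pairs than between states.

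The replicates of a state also lay further apart on chromosome 18 than on most autosomes. Pearson's r over its bins was 0.953 between the Late libraries and 0.968 between the Basal libraries, against medians over the 18 autosomes of 0.969 and 0.987. The root mean square SD of a bin between the Basal libraries was 0.178 PC1 units on chromosome 18 and 0.0830 to 0.132 on the other 17 autosomes. Between the Late libraries it was 0.216, against 0.145 to 0.233. Between a Late and a Basal library, r was 0.881 to 0.906, the lowest of the 18 autosomes in each of the 4 pairs. Between Early and the other libraries it was 0.860 to 0.888. The bins of a chromosome share reads and are no replicates, so these r are descriptions.

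Late was set against Basal to find where along the chromosome the contacts had moved towards those of A or of B. With limma's test on the values as deposited, fitted and adjusted by Benjamini-Hochberg over 47652 bins of 18 autosomes and X, 414 bins of chromosome 18 (23.6%) passed an adjusted p of 0.05, against 16.4% of all bins of the fit. Of these, 234 rose in Late (13.3%, against 8.78% of all bins) and 180 fell (10.2%, against 7.63%). The median difference was 0.678 PC1 units in the bins that rose (median SE 0.134) and -0.658 in those that fell (median SE 0.132). Single differences ran from 0.398 to 1.53 in bins that rose. The comparisons rest on 2 Basal, 1 Early and 2 Late libraries of 2 animals a group, whose separate origin the labels do not state for each file. The p-values set a difference against the spread within the Basal and Late pairs (2 residual degrees of freedom) and a prior from all bins (6.60). Early adds nothing to that spread. Whether it is a spread between animals is not known.

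The share called is read beside the spread between replicates, since the share and the spread between the Basal libraries were both highest on chromosome 18 among the 18 autosomes. The other 17 autosomes had 7.33% to 19.3% of bins called. Their spread between the Basal libraries, given above, was also lower without exception. The limma fit takes 1 prior for the variance from all chromosomes. With a prior of its own for each chromosome, chosen after the data were seen, 316 bins of chromosome 18 passed (18.0%, against 18.8% of all bins), so its share above that of all bins was present with the shared prior and not with this one. All bins include X, where 48.3% were called with the shared prior. The share of the autosomes alone was not taken with a prior for each chromosome, so where chromosome 18 stood among them is not known. The part of the spread in the share called was not tested further. The count also turned on the libraries. It fell with either Basal library left out and rose with either Late library left out. The share called over all bins moved the same way each time. With every deposited sequence in the fit, chromosome 7 included, limma called none of the 1757 bins (574 had an unadjusted p under 0.05). It called none of all 50542 bins either, while the differences themselves are the same in both fits. On chromosome 7, left out of the other fits, the lowest r between 2 libraries was -0.976, and the prior degrees of freedom were 2.58 with every sequence and 6.60 without it.

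**Figure D2:**
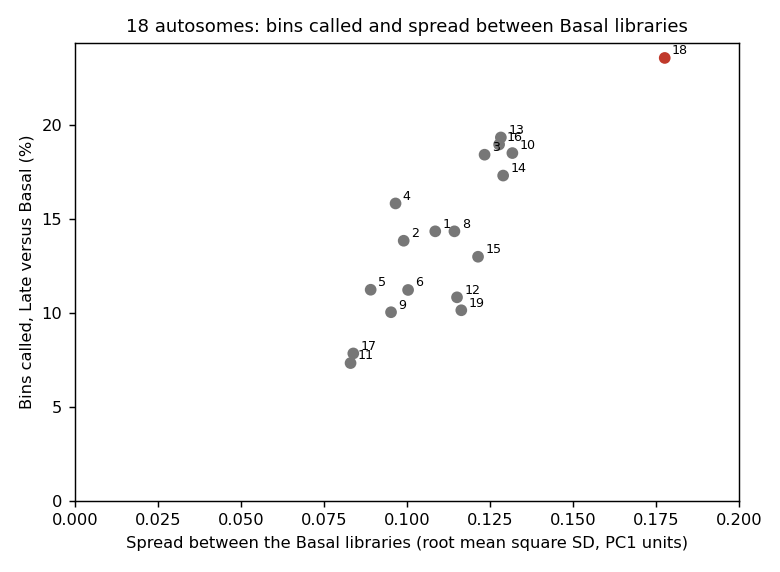
Bins called in Late versus Basal (vertical axis, percent of the chromosome's bins) against the root mean square SD between the Basal libraries (horizontal axis, PC1 units), with 1 point for each of 18 autosomes. Chromosome 18 (red) stands at 0.178 and 23.6%, above and to the right of the other 17.

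Most bins that moved did not cross between compartments. Of the 234 bins that rose in Late, 86 lay in A in all Late and Basal libraries and 64 in B in all of them, 43 lay in A in both Late libraries and in B in both Basal libraries, and in 41 the libraries of a state differed in sign. Of the 180 that fell, 60 stayed in A, 49 stayed in B, 38 lay in B in Late and in A in Basal, and 33 were mixed. This split was not taken over all called bins, so whether it is particular to chromosome 18 is not known. The rises formed 69 regions and the falls 52, when called bins of 1 direction were joined across a gap of at most 1 bin.

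The strongest rise lay from 57150001 to 57500000, a stretch of 7 bins. Its mean PC1 was 0.928 and 0.727 in the Late libraries, against -0.353 and -0.301 in the Basal libraries, a difference of 1.15 (median SE 0.160, largest limma adjusted p of its bins 0.0195). Each of its bins was in A in both Late libraries, where the lowest were at 0.802 and 0.455, while the Basal bins ran from -0.729 to 0.292. The Early library had a mean of 0.335 and stood between the groups. The region lies 350 kb distal to the longest A block of the chromosome. The longest rise spanned 1600 kb within and beyond that block, from 55400001 to 57000000. There 30 called bins averaged 1.08 and 1.15 in Late, against 0.375 and 0.373 in Basal, a difference of 0.741 (median SE 0.131, largest adjusted p 0.0434), and Early had 1.27. With a 10 Mb running mean taken out of each library, that difference was 0.434 and fewer than 50% of its bins stayed called. The strongest rise kept its call under that setting.

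The next strongest rise, from 81350001 to 81650000, was on average in A in Late and in B in Basal. Its 6 bins averaged 0.354 and 0.162 in Late, against -0.620 and -0.669 in Basal, a difference of 0.903 (median SE 0.134, largest adjusted p 0.0118), with Early at 0.0882. The region from 60550001 to 60700000 averaged 0.254 and 0.0623 in Late, against -0.685 and -0.756 in Basal, a difference of 0.879 (largest adjusted p 0.0330). Its Early value of -0.635 stood near Basal. The region from 52750001 to 53350000 had 0.491 and 0.562 in Late, against -0.313 and -0.330 in Basal, a difference of 0.848 (largest adjusted p 0.0441). Early had -0.126 there, and with the 10 Mb trend removed the difference was 0.494 and the call was lost.

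A broad rise lay inside a B block from 13400001 to 14750000. Its 26 called bins averaged -0.184 and -0.0953 in Late, against -1.001 and -0.982 in Basal, a difference of 0.852 (median SE 0.145, largest adjusted p 0.0451), with Early at -0.483. In its middle, from 13850001 to 14150000, 6 bins in a row were in A in both Late libraries, with means of 0.357 and 0.477, against -0.591 and -0.818 in Basal. That was the longest run on the chromosome in A in Late and in B in Basal, and all 6 of its bins were called. Around this peak the region was strong B in Basal and weak B in Late.

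The strongest fall lay near the distal end, from 89600001 to 90000000. Its 8 bins averaged -0.825 and -0.758 in Late, against 0.0949 and 0.187 in Basal, a difference of -0.933 (median SE 0.141, largest adjusted p 0.0465), with Early at -0.134. Its proximal 5 bins, to 89850000, were in A in both Basal libraries and in B in both Late libraries. The longest fall spanned 2100 kb from 40300001 to 42400000. Its 41 called bins averaged -0.524 and -0.469 in Late, against 0.383 and 0.344 in Basal, a difference of -0.860 (median SE 0.135, largest adjusted p 0.0339), with Early at 0.0619. In Basal the centre of the region lay close to 0 between A blocks, and in Late it was a B block.

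The other named falls were shorter. The region from 86550001 to 86700000 averaged -0.587 and -0.353 in Late, against 0.267 and 0.429 in Basal, a difference of -0.818 (largest adjusted p 0.0130), with Early at -0.179. The region from 51250001 to 51550000 went deeper into B, at -1.08 and -1.27 in Late, against -0.408 and -0.449 in Basal, a difference of -0.748 (largest adjusted p 0.0221), with Early at -1.15. The region from 59350001 to 59550000 averaged -0.746 and -0.769 in Late, against 0.286 and -0.176 in Basal, a difference of -0.813 (largest adjusted p 0.0311). Its Basal libraries differed in sign, and without Basal replicate 1 the difference was -0.582 and the call was lost. The call at 51.25 Mb was lost in the same setting, with a difference of -0.728.

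**Figure D3:**
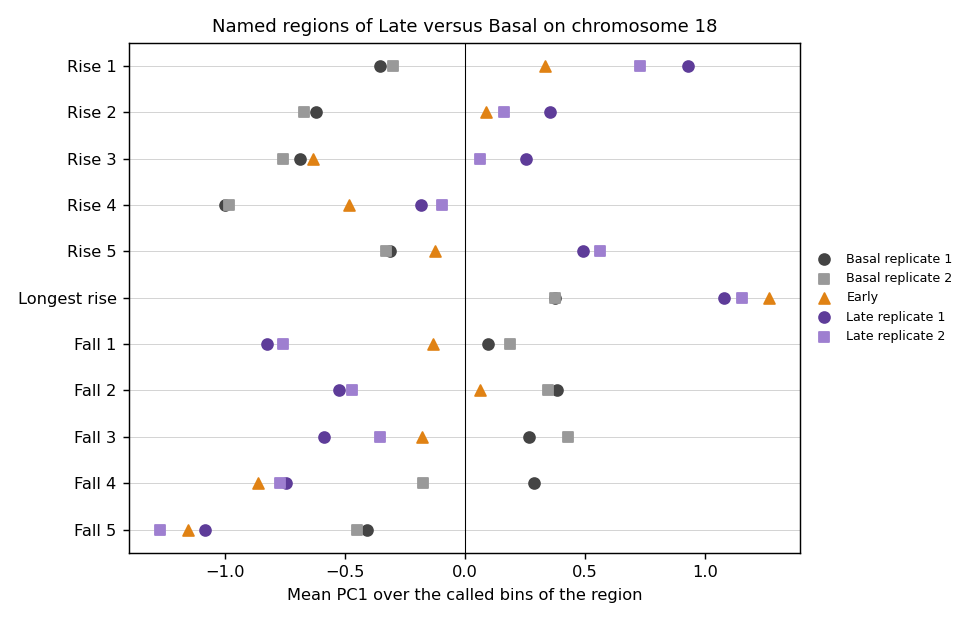
Mean PC1 over the called bins (horizontal axis, no unit) of the 11 named regions of Late versus Basal, 6 rises above 5 falls, in the order of their difference with the longest rise sixth; each point is 1 library. In every region both Late libraries lie on the same side of both Basal libraries, which follows from choosing the regions by the test of these libraries. The Early library lies between the groups in 8 of the 11 regions but above both Late libraries, at 1.27, in the longest rise.

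**Figure D4:**
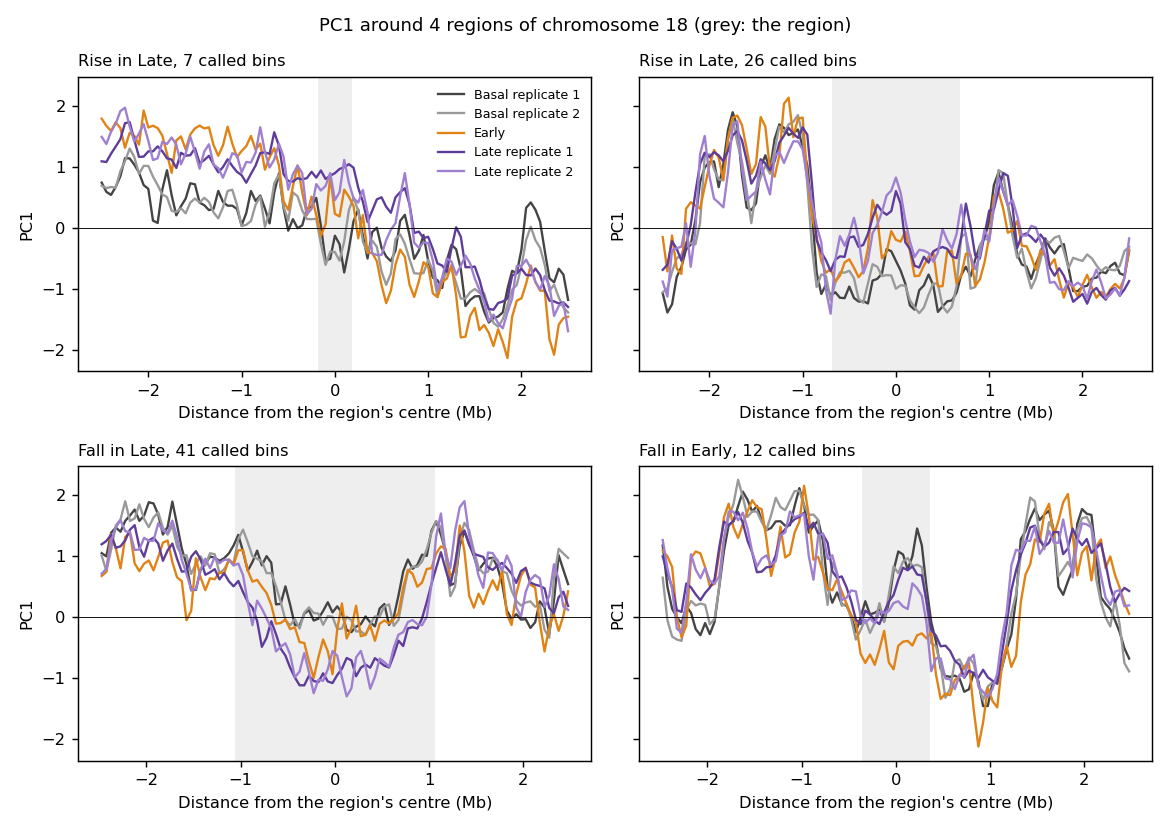
PC1 (vertical axis, no unit) around the centre of 4 named regions (horizontal axis, distance from the centre in Mb), with 1 line for each library and the region in grey. The panels show the rises of 1.15 and 0.852 and the fall of -0.860 in Late versus Basal, and the fall of -1.15 in Early versus Basal. In that last region Early averaged below 0 and the other libraries above it, with both Late libraries lower than both Basal libraries.

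Changed bins were concentrated in the middle of the chromosome. Split into segments at every 10 Mb, the segment from 50000001 to 60000000 had 108 of its 200 bins called in Late versus Basal (54.0%), 87 higher and 21 lower. Its mean PC1 was 0.110 and 0.0737 in Late, against -0.175 and -0.224 in Basal, and its share in A was 58.0% and 53.5% in Late, against 45.0% and 42.0% in Basal. The segment from 40000001 to 50000000 came next, with 83 bins called (41.5%), 34 higher and 49 lower. There the mean PC1 was -0.193 and -0.160 in Late, against -0.143 and -0.153 in Basal, so rises and falls within it cancelled. The segment from 70000001 to 80000000 had 20 bins called (10.0%). With the 10 Mb trend removed, the segment from 50000001 had 28 bins higher and 37 lower. The running mean taken out is as long as the segment and removes much of a shift of the whole segment. These counts therefore show bins relative to their surroundings and cannot tell whether the excess of rises holds at a finer scale.

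**Figure D5:**
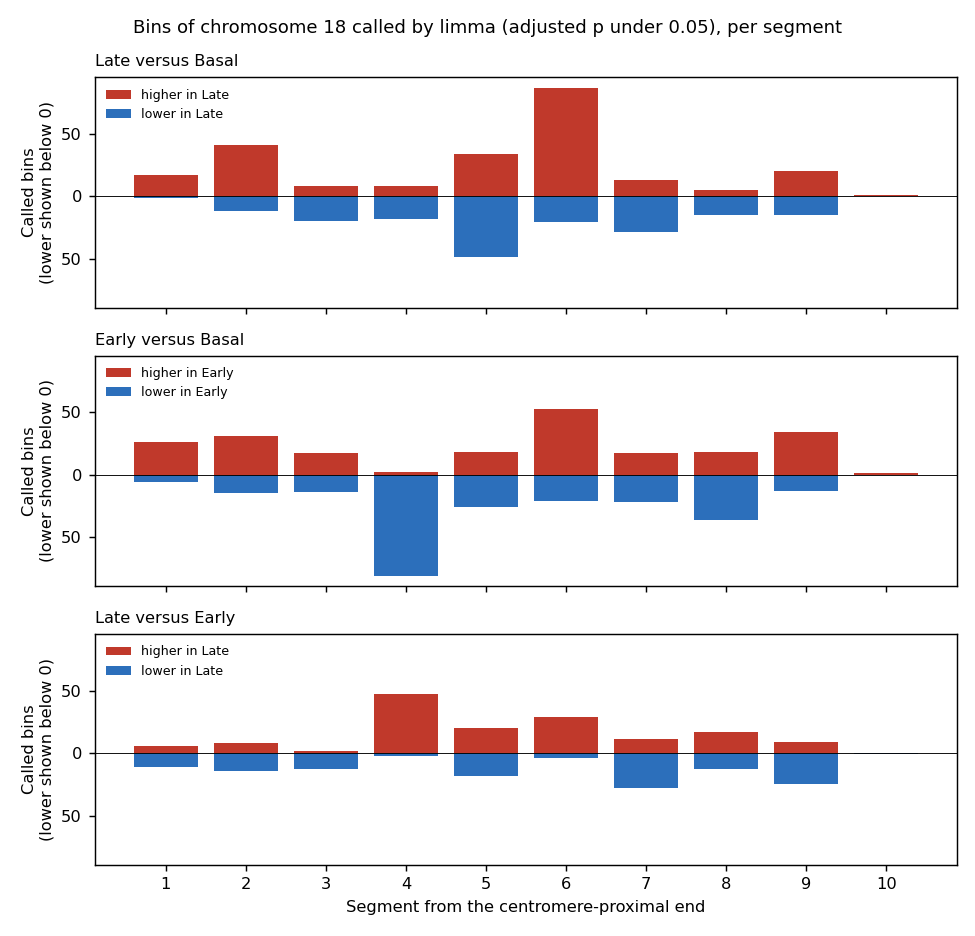
Bins of chromosome 18 called by limma (vertical axis, number of bins; bins that rose in the first-named state above 0 in red, bins that fell below 0 in blue) in 10 segments from the centromere-proximal end, cut at every 10 Mb, for each of 3 comparisons. The sixth segment has 87 rises in Late versus Basal, and the fourth has 81 falls in Early versus Basal.

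By sign alone, 101 bins (5.75%) of chromosome 18 lay in 1 compartment in both Late libraries and in the other in both Basal libraries, against 5.75% of all bins of the fit. Of these, 55 were in A in Late and B in Basal (3.13%, against 3.13% of all bins) and 46 were in B in Late and A in Basal (2.62%, against 2.62%). The share that changed compartment was thus that of all bins, which include X at 13.4%. The other 17 autosomes had 3.1% to 7.7%, with a median of 4.96%. Of the 101 bins, 81 were also called, an overlap not taken over all bins. The balance of directions turned on the centring. With the chromosome's median set to 0 in each library the counts were 50 and 54, and with quantile normalization 51 and 56. The longest run into B, of 7 bins from 25550001 to 25900000, averaged -0.303 and -0.369 in Late, against 0.405 and 0.359 in Basal, with Early at -0.182. It borders the longest B block on its proximal side. Other runs into B lay from 33150001 to 33400000, at -0.210 and -0.444 in Late against 0.218 and 0.419 in Basal, and inside the longest fall from 42050001 to 42300000, at -0.203 and -0.121 in Late against 0.874 and 0.741 in Basal. In that last run Early had 0.608 and stood with Basal. Another, from 22850001 to 23050000, was weak in both states, at -0.245 and -0.338 in Late against 0.0844 and 0.273 in Basal, and 2 of its 4 bins were called. The third run into A, from 46950001 to 47150000, averaged 0.146 and 0.261 in Late, against -0.224 and -0.276 in Basal, with Early at -0.163.

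Early against Basal rests on 1 library, whose spread is assumed to be that of the other groups. In limma 451 bins (25.7%) passed, against 19.9% of all bins of the fit. With a prior for each chromosome 376 passed (21.4%, against 22.7% of all bins), so the side of this background on which chromosome 18 stood turned on the prior. The background includes X, where 52.1% were called with the shared prior, and the autosomes alone were not taken with a prior for each chromosome. Of the 451, 217 rose in Early (12.4%, against 9.97%) with a median difference of 0.829 (median SE 0.166), and 234 fell (13.3%, against 9.98%) with a median of -0.781 (median SE 0.163). Of the 217, 101 stayed in A and 51 in B, and 49 lay in A in Early and in B in Basal. Of the 234, 115 stayed in A and 58 in B, and 45 lay in B in Early and in A in Basal. These splits, too, were not taken over all called bins. Early was the noisiest library on this chromosome (0.288), and with libraries weighted by their noise the fit called 175 bins (9.96%, against 7.2% of all bins). With every deposited sequence limma called 82 (4.67%, against 4.12% of all bins). The count fell with either Basal library left out and rose with either Late library left out, and so did the share over all bins.

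The falls in Early gathered in the segment from 30000001 to 40000000, where 81 of 200 bins were lower and 2 higher. The mean PC1 of the segment was 0.173 in Early, against 0.596 and 0.607 in Basal, and the Late libraries had 0.520 and 0.428. Within it the longest fall ran from 36100001 to 36950000. Its 17 bins averaged 0.506 in Early, against 1.52 and 1.37 in Basal, a difference of -0.941 (median SE 0.165, largest adjusted p 0.0232), with Late at 1.42 and 1.25. It was a weakening of an A block that stayed in A. The nearby region from 37100001 to 37400000 went deeper into B, at -1.54 in Early against -0.512 and -0.527 in Basal, a difference of -1.02 (largest adjusted p 0.0207), with Late at -1.03 and -1.11. With the 10 Mb trend removed the first of these differences was -0.476 and its call was lost, and the second was -0.576 with its call kept. Then 18 bins of the segment were lower and 8 higher. The segment from 50000001 had 36 falls and that from 70000001 had 31. The running mean taken out is as long as the segment and removes much of a shift of the whole segment. The setting therefore cannot test the gathering of falls seen in the values as deposited.

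The strongest fall in Early, from 78650001 to 79350000, was on average in B in Early and in A in Basal. Its 12 called bins averaged -0.522 in Early, against 0.706 and 0.557 in Basal, a difference of -1.15 (median SE 0.181, largest adjusted p 0.0312), and the Late libraries stood at 0.437 and 0.174. From 78900001 to 79350000, 9 bins in a row were in B in Early and in A in both Basal libraries, with means of -0.468 in Early and 0.890 and 0.731 in Basal. Late had 0.588 and 0.244 in this run. Of the other named falls, the regions from 65700001 to 65850000 and from 68150001 to 68300000 were strong A stretches. The first averaged 0.752 in Early, against 1.78 and 1.78 in Basal (difference -1.03, largest adjusted p 0.00741), and the second 0.359 in Early, against 1.38 and 1.35 in Basal (difference -1.01, largest adjusted p 0.00969). The region from 51400001 to 51550000 averaged -1.60 in Early, against -0.602 and -0.496 in Basal (difference -1.05, largest adjusted p 0.0132).

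The strongest rise in Early, from 10850001 to 11000000, was on average in A in Early and in B in Basal. Its 3 bins averaged 0.838 in Early, against -0.319 and -0.407 in Basal, a difference of 1.20 (median SE 0.172, largest adjusted p 0.00384), with Late at 0.227 and 0.00748. The region from 22150001 to 22250000 was near 0 in Early, at 0.111, against -0.946 and -1.08 in Basal (difference 1.13, largest adjusted p 0.00796), and at -0.926 and -1.23 in Late. Early stood apart from both other states here. The regions from 80700001 to 80850000 and from 62300001 to 62400000 went further into A, at 1.83 and 1.69 in Early, against 0.486 and 0.788 in Basal for the first and 0.755 and 0.578 for the second. The longest rise, from 55600001 to 56700000, lay in the longest A block, at 1.39 in Early against 0.399 and 0.341 in Basal (difference 1.02, largest adjusted p 0.0491). A shorter one beside it, from 55250001 to 55500000, had 1.68 in Early against 0.434 and 0.824 in Basal (difference 1.05, largest adjusted p 0.0177). Its call was lost when libraries were weighted by noise, with a difference of 1.05.

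By sign, 159 bins (9.05%) were opposite in Early to both Basal libraries, against 9.78% of all bins of the fit, 84 of them in A in Early (4.78%, against 5.70%) and 75 in B (4.27%, against 4.09%). With quantile normalization the counts were 71 and 90. The shares of chromosome 18 stood near those of all bins, which include X at 22.1% in either direction. The other 17 autosomes had a median of 8.14% in either direction. Of the 159, 94 were also called, an overlap not taken over all bins. A run of 5 bins from 25650001 to 25900000 lay in B in Early, at -0.334, against 0.453 and 0.398 in Basal, and the Late libraries had -0.361 and -0.347. Early and Late thus stood together there, beside the longest B block. A run of 4 bins from 16750001 to 16950000 had -0.261 in Early, against 0.632 and 0.610 in Basal, with 0.201 and 0.0549 in Late. The run into A from 81650001 to 81850000 had 0.282 in Early, against -0.328 and -0.331 in Basal, and adjoins on its distal side a named rise of Late versus Basal. A run from 46150001 to 46350000 had 0.162 in Early, against -0.184 and -0.132 in Basal, and none of its 4 bins was called by limma.

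Late was then set against Early, with the libraries already used in the comparisons above. In limma 278 bins (15.8%) passed, against 12.7% of all bins of the fit, of which 149 were higher in Late (8.48%, against 6.28%) and 129 lower (7.34%, against 6.44%). The median difference was 0.822 in the higher bins (median SE 0.164) and -0.754 in the lower bins (median SE 0.162). With a prior for each chromosome 218 bins passed (12.4%, against 15.6% of all bins), which put chromosome 18 below the background. With libraries weighted by noise 40 bins passed (2.28%, against 2.1%), 26 higher and 14 lower. With every deposited sequence none did (511 had an unadjusted p under 0.05), nor did any other bin of that fit. The count rose with either Late library left out and fell with either Basal library left out, and so did the share over all bins.

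The largest difference was a rise in Late from 7600001 to 7700000. Its 2 bins averaged -0.392 and -0.147 in Late, against -1.67 in Early, a difference of 1.40 (median SE 0.165, largest adjusted p 0.00397), and -0.886 and -1.03 in Basal. The region from 53150001 to 53250000 averaged 0.468 and 0.398 in Late, against -0.715 in Early (difference 1.15, largest adjusted p 0.0268), with -0.635 and -0.663 in Basal. The region from 57850001 to 58200000, which lies beyond the strongest rise of Late versus Basal, averaged 0.377 and 0.202 in Late, against -0.820 in Early (difference 1.11, largest adjusted p 0.0244), with -0.239 and -0.497 in Basal. In these 3 regions both Late libraries were above, and Early below, both Basal libraries. The region from 80200001 to 80400000 averaged 0.864 and 1.07 in Late, against -0.125 in Early (difference 1.09, largest adjusted p 0.0439), with 0.678 and 0.743 in Basal. The region from 37800001 to 38150000 averaged 0.252 and 0.192 in Late, against -0.824 in Early (difference 1.05, largest adjusted p 0.0171), with 0.196 and 0.0722 in Basal. In both of these regions Early averaged below 0 and the other libraries above it. The calls at 57.85 and 37.80 Mb were lost when libraries were weighted by noise, with differences of 1.16 and 1.06. The longest rise, from 36300001 to 37000000, lay in the A block that was weak in Early. Its 13 called bins averaged 1.36 and 1.24 in Late, against 0.420 in Early (difference 0.881, largest adjusted p 0.0366), with 1.33 and 1.20 in Basal. Its call was lost with the trend removed (difference 0.630) and with noise weights (0.914).

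Among bins lower in Late, the region from 77450001 to 77600000 was a strong A stretch that weakened. It averaged 0.847 and 0.952 in Late, against 1.83 in Early (difference -0.930, median SE 0.144, largest adjusted p 0.0106), with 1.71 and 1.68 in Basal. The region from 41400001 to 41600000, inside the longest fall of Late versus Basal, averaged -0.837 and -0.935 in Late, against 0.0798 in Early (difference -0.966, largest adjusted p 0.0438). The longest, from 89300001 to 89950000, held 10 called bins at -0.758 and -0.641 in Late, against 0.137 in Early (difference -0.836, largest adjusted p 0.0474), with -0.0255 and 0.0773 in Basal. Its call was lost with the trend removed (difference -0.655) and with noise weights (-0.867). The regions at 22.15 Mb and 20.40 Mb were those where Early stood near 0 and all other libraries in B, with -0.946 and -1.29 in Late against -0.0618 in Early, and -1.04 and -0.903 in Late against 0.0429 in Early. At 70.15 Mb the Late libraries were far apart, at -0.458 and -1.07, against 0.204 in Early. The calls at 22.15 and 70.15 Mb were lost with noise weights (differences -0.966 and -0.807). By sign, 142 bins (8.08%, against 7.56% of all bins) were opposite in both Late libraries to Early, 77 in A in Late (4.38%, against 3.46%) and 65 in B (3.70%, against 4.10%). Of the 142, 78 were also called, an overlap not taken over all bins. The longest run, of 9 bins from 78850001 to 79300000, had 0.569 and 0.263 in Late, against -0.454 in Early, and lies in the strongest fall of Early versus Basal. A run of 4 bins from 57950001 to 58150000 had 0.531 and 0.471 in Late, against -0.588 in Early. Of the runs into B, that from 89450001 to 89700000 had -0.644 and -0.372 in Late, against 0.395 in Early, and that from 42000001 to 42300000 had -0.233 and -0.148 in Late, against 0.518 in Early. Both lie in or beside falls of Late versus Basal.

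Read over the 3 states, 1558 bins had 1 sign within each state and 199 had a state whose libraries differed in sign. Of the 1558, 652 were in A and 730 in B in every state. The 176 bins that changed took 6 courses. In 40 Early alone was in A (2.28%, against 2.45% of all bins analysed) and in 35 Early alone was in B (1.99%, against 1.97%). In 30 both Early and Late were in A after a Basal B (1.71%, against 2.03%), and in 30 both were in B after a Basal A (1.71%, against 1.40%). In 25 Late alone was in A (1.42%, against 1.11%), and in 16 Late alone was in B (0.911%, against 1.21%). Each share was near that of all bins. These counts describe signs near 0 and carry no test. Among the Late versus Basal runs, the rise from 57200001 to 57450000 belonged to the course in which Early and Late were both in A, with Basal means of -0.433 and -0.428, an Early mean of 0.392, and Late means of 0.902 and 0.748. The run from 3650001 to 3900000 was in A in Early alone, with Basal at -0.344 and -0.491, Early at 0.160, and Late at -0.492 and -0.543.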

How the data were processed

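Hi-C of sorted hippocampal nuclei was measured in 5 libraries (Basal 2, Early 1, Late 2), grouped by title. The deposited values are a signed PC1 score per 50 kb bin, computed in 100 kb windows per the deposited file names and tied to HOMER and mm9 by the submitters' processing notes. Neither versions nor an aligner or filters were found in the labels or file headers. Neighbouring bins share reads, depth is unknown, and coordinates are 1-based. How the authors oriented the sign is not stated.

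All bins with a value in all 5 libraries on chromosomes whose library pairs correlated with r of at least 0.5 (18 autosomes and X, 47652 bins) entered 1 limma 3.58.1 fit (R 4.3.3) with state as the only term, 2-sided tests and Benjamini-Hochberg adjustment at 0.05. Residual degrees of freedom were 2, with 6.60 added by the prior. Chromosome 7 failed the correlation rule. Switches, segments, borders and state courses were counted without a test in Python 3.11.15. The fitting code was checked on input with a known answer. Named regions join called bins of 1 direction across at most 1 bin. Per comparison and direction the text takes the 5 with the largest mean difference among those of at least 2 called bins, and the longest, 35 in all. Named switches are runs of at least 4 bins, at most 5 per direction. A region kept its call where at least 50% of its bins did. Members, lists and rules were chosen with earlier results of these data known. Other scalings, priors, weights, sets of bins and left-out libraries were tried. The gene table is RefSeq GRCm38.p6.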

Additional observations from a re-analysis of the deposited data

How the results depend on the processing

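Leaving out single libraries moved the called bins of chromosome 18 between 175 and 674 in Late versus Basal (414 with all libraries), 258 and 766 in Early versus Basal (451) and 218 and 570 in Late versus Early (278). With every deposited sequence in the fit the counts were 0, 82 and 0. With every second bin they were 200, 229 and 146 of 878 bins (22.8%, 26.1% and 16.6%), about the same share. All bins of that fit had 16.8%, 20.3% and 13.4%. With noise weights they were 549 (31.2%, against 22.5% of all bins), 175 and 40. A threshold of 0.10 gave 487 bins in Late versus Early (27.7%, against 22.3% of all bins). Requiring every library to pass 0 by 0.1 left 52, 87 and 80 switched bins in the 3 comparisons, and by 0.25 it left 17, 28 and 21. Both follow from the stricter rule. The causes of the other moves were not tested.

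Of the 35 named regions, all kept their direction under every setting. The regions were picked from these same data. With autosomes only, another prior or another threshold the differences are unchanged, so the direction was fixed in advance there. All kept their call with autosomes only, chromosome 7 added with its sign inverted in Late replicate 1, quantile normalization, chromosome medians and SDs, every second bin, a trend in the prior, a prior per chromosome, the looser threshold, the block below, and without Basal replicate 2 or either Late library. Without Early, the 11 regions of Late versus Basal kept it and the other comparisons cannot be made. With the 10 Mb trend removed 30 kept it, with noise weights 28, without Basal replicate 1 33, and with every deposited sequence 6, all of them Early versus Basal. The share of Late replicate 2 in A was 47.6% with quantile normalization and 48.1% as deposited.

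With the replicate number as a block, 494, 480 and 302 bins were called (28.1%, 27.3% and 17.2%). All bins of that fit had 18.4%, 20.1% and 12.2%. The labels do not say that equal numbers share animals or a day. The deviations of same-numbered Basal and Late libraries correlated with r of 0.0202 over the bins of chromosome 18. This shows almost no shared deviation in PC1 and cannot tell whether the libraries share animals or a day. Mean PC1 over gene bodies was not run, since no annotation of the files' build was used here.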
